A study of Mus musculus with 6 samples.

Results

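Neuropeptide precursors are the secreted proproteins from which neurons and endocrine cells cut short signalling peptides. Transcripts of 9 such genes were examined in medullary thymic epithelial cells, through every probe set whose platform annotation names only that gene: Penk (3 probe sets), Gal (2), Pdyn (2), and Npy, Tac1, Tac2, Oxt, Avp and Vip (1 each). These are 13 of the 12422 non-control probe sets of the array, each kept apart. Cartpt, precursor of the CART peptides and the last of the 10 genes considered, is not named in the annotation used here and was dropped.

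Wild-type cells were compared with cells of Aire-/- mice, whose Aire alleles are both disrupted; the 2 groups shared the B6/129 F2 background and an age of 3 to 5 weeks. There were 3 arrays per group, and 5 thymi from males and females were pooled for each. The sorted cells were CD45-, G8.8+, CDR1int and B7.1hi, that is, without the leukocyte antigen, bound by an epithelial antibody, intermediate for CDR1 and high for a costimulatory molecule. The RNA went through 2 rounds of T7 amplification before hybridisation, and the number of arrays limits the precision of every value.

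Medullary epithelial cells of the thymus transcribe many genes that are otherwise restricted to peripheral tissues, and Aire is a transcriptional regulator on which many of these transcripts are known to depend. Neuropeptide precursors enter the secretory pathway, where prohormone convertases cleave them at pairs of basic residues and the peptides are stored in dense-core granules until release. In nervous and endocrine tissue they signal through G protein-coupled receptors. In the thymus several of them, oxytocin among them, are known as self-antigens displayed to developing T cells.

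The promoters of the 3 members that fell and have an entry in the RefSeq promoter table (assembly GRCm38.p6) are shown because their CG content differed widely among genes that all fell. Each covers 250 bases before to 50 bases after the transcript start, on the gene's own strand, with CG dinucleotides in capitals. The Npy window lies at chr6:49822460-49822759 (plus strand), the Tac1 window at chr6:7554811-7555110 (plus strand) and the Tac2 window at chr10:127724228-127724527 (plus strand).
Npy: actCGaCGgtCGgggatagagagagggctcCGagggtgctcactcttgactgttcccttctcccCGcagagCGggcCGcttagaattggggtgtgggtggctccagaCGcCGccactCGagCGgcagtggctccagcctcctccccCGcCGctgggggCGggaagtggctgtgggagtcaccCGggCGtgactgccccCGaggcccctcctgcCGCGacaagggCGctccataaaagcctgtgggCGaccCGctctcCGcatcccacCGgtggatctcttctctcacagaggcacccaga
Tac1: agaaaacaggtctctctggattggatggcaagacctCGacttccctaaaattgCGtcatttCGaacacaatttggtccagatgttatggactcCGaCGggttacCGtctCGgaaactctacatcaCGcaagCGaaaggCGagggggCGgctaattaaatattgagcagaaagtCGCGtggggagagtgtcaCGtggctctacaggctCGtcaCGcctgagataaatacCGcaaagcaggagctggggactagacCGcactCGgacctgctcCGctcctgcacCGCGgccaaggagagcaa
Tac2: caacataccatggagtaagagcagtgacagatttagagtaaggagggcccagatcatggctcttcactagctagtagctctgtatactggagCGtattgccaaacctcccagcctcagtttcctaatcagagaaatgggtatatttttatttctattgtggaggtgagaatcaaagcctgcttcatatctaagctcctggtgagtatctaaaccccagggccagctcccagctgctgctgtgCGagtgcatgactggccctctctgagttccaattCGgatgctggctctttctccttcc

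The Npy promoter holds 24 CG dinucleotides and the Tac1 promoter 22, whereas the Tac2 promoter holds 3. Over the 32851 promoters of the table the median was 7, with quartiles of 3 and 20, and 80.0% of promoters held fewer than Npy against 23.3% holding fewer than Tac2. The letters TATAAA, searched on both strands, were absent from these 3 windows and present in 13.6% of all promoters. Among the members with an entry they occurred in Vip alone. The letters TGACG, the core of a cyclic AMP response element, occurred on either strand in 20.8% of all promoters. Among the 10 windows of the members they occurred in 4, those of Tac1, Gal, Vip and Cartpt. A match is a description of these letters only.

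Of 17 measured marker genes of medullary epithelial cells, 15 exceeded the limit for dim signals on at least 1 array. The keratins Krt5 and Krt14 lay under the limit on every array. This count does not by itself show the identity of the cells, which rests on the sort. That limit is a normalized signal of 5.53, the 40th percentile of all values. The single Aire probe set gave 59.9 to 138 on wild-type arrays and 202 to 297 on Aire-deficient arrays (adjusted p = 0.0918, or 0.0191 with the replicate number as a block). Since the disrupted portion of the gene is not given, this signal does not check the genotype. Beta-actin 3' signal divided by 5' signal, a measure touched by RNA quality and amplification, was 95.8 on wild-type array 2 and 4.38 to 13.8 on the others. Summed signals of granulocyte markers were 339 to 869 in wild type and 120 to 135 in Aire-deficient cells. Of their 10 tested probe sets 6 fell, beside 1.38% of all tested. Of these, Ly6g, Ngp and Ltf exceeded the dim limit on wild-type arrays alone. The summed signals of medullary epithelial markers were 5040 to 6399 and 7479 to 8604, of macrophage and dendritic markers 297 to 402 and 248 to 276, and of B cell markers 64.7 to 103 and 115 to 137. The sums overlapped between groups for thymocyte, fibroblast and endothelial markers. In these 6 lists 0 probe sets were called by limma in either direction, while at an unadjusted p under 0.05 up to 2 per list were lower and up to 5 higher. The 5 were among 18 tested medullary epithelial probe sets, beside 6.44% of all tested. In that list 1 was lower, beside 7.81%. Groups did not overlap for 7 of the 18 in the higher direction and 1 in the lower, beside 10.4% and 10.1%. Of the 18, 3 had a log2 difference below 0, beside 46.9%. The median of the 18 was 0.47, beside 0.05. With the block, 1 epithelial probe set (Epcam, adjusted p = 0.0315), 1 B cell and 1 macrophage or dendritic probe set were lower, and 2 B cell and 1 macrophage or dendritic probe sets were higher. The part of these in the differences below was not tested, beyond the fits without each array. In bulk samples fewer cells of a type and less RNA per cell cannot be told apart.

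Penk, Npy, Tac1 and Tac2 fell in the Aire-deficient cells, and no member rose. These 4 calls were made among 8 member probe sets bright enough to be tested, in a limma fit across all 7768 tested probe sets at an adjusted p under 0.05. Over all tested probe sets 1.38% were lower and 0.348% were higher. At an unadjusted p under 0.05, 6 member probe sets were lower and 0 higher, beside 7.81% and 6.44% of all tested. With the replicate number as a block, 6 member probe sets were lower, adding Oxt and Gal, against a background of 3.37%, and 0 were higher, against 1.93%. The pairing behind this block is stated by no label and was inferred from these same data. The groups did not overlap for 6 of the 8, all lower in the Aire-deficient cells, where 10.1% of tested probe sets were separated in that direction and 10.4% in the other. Of the 8, 7 had a log2 difference below 0, beside 46.9% of all tested. The median log2 difference of the 8 was -2.29, beside 0.05 over all tested probe sets. The members were chosen with earlier results of these data known. These comparisons therefore describe the members and do not test for an excess.

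Those counts describe the probe sets that passed a filter, not all members. A probe set was tested if it exceeded the dim limit on at least 3 of 6 arrays. All 8 did so on every wild-type array, but 4 of them did on only 1 Aire-deficient array and Npy on none. Npy thus passed through the wild-type arrays alone and had to be lower without overlap. It is nevertheless included in the calls, the separated groups and the median given above. Without wild-type array 1 the number of member calls was 2, without wild-type array 2 it was 2, and without wild-type array 3 it was 0 (6 at an unadjusted p under 0.05). These fits applied the filter anew to the arrays left. With the tested probe sets kept, the numbers were 3, 2 and 2. With no filter on dim signals only the Penk probe set 94516_f_at was called.

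**Figure D1:**
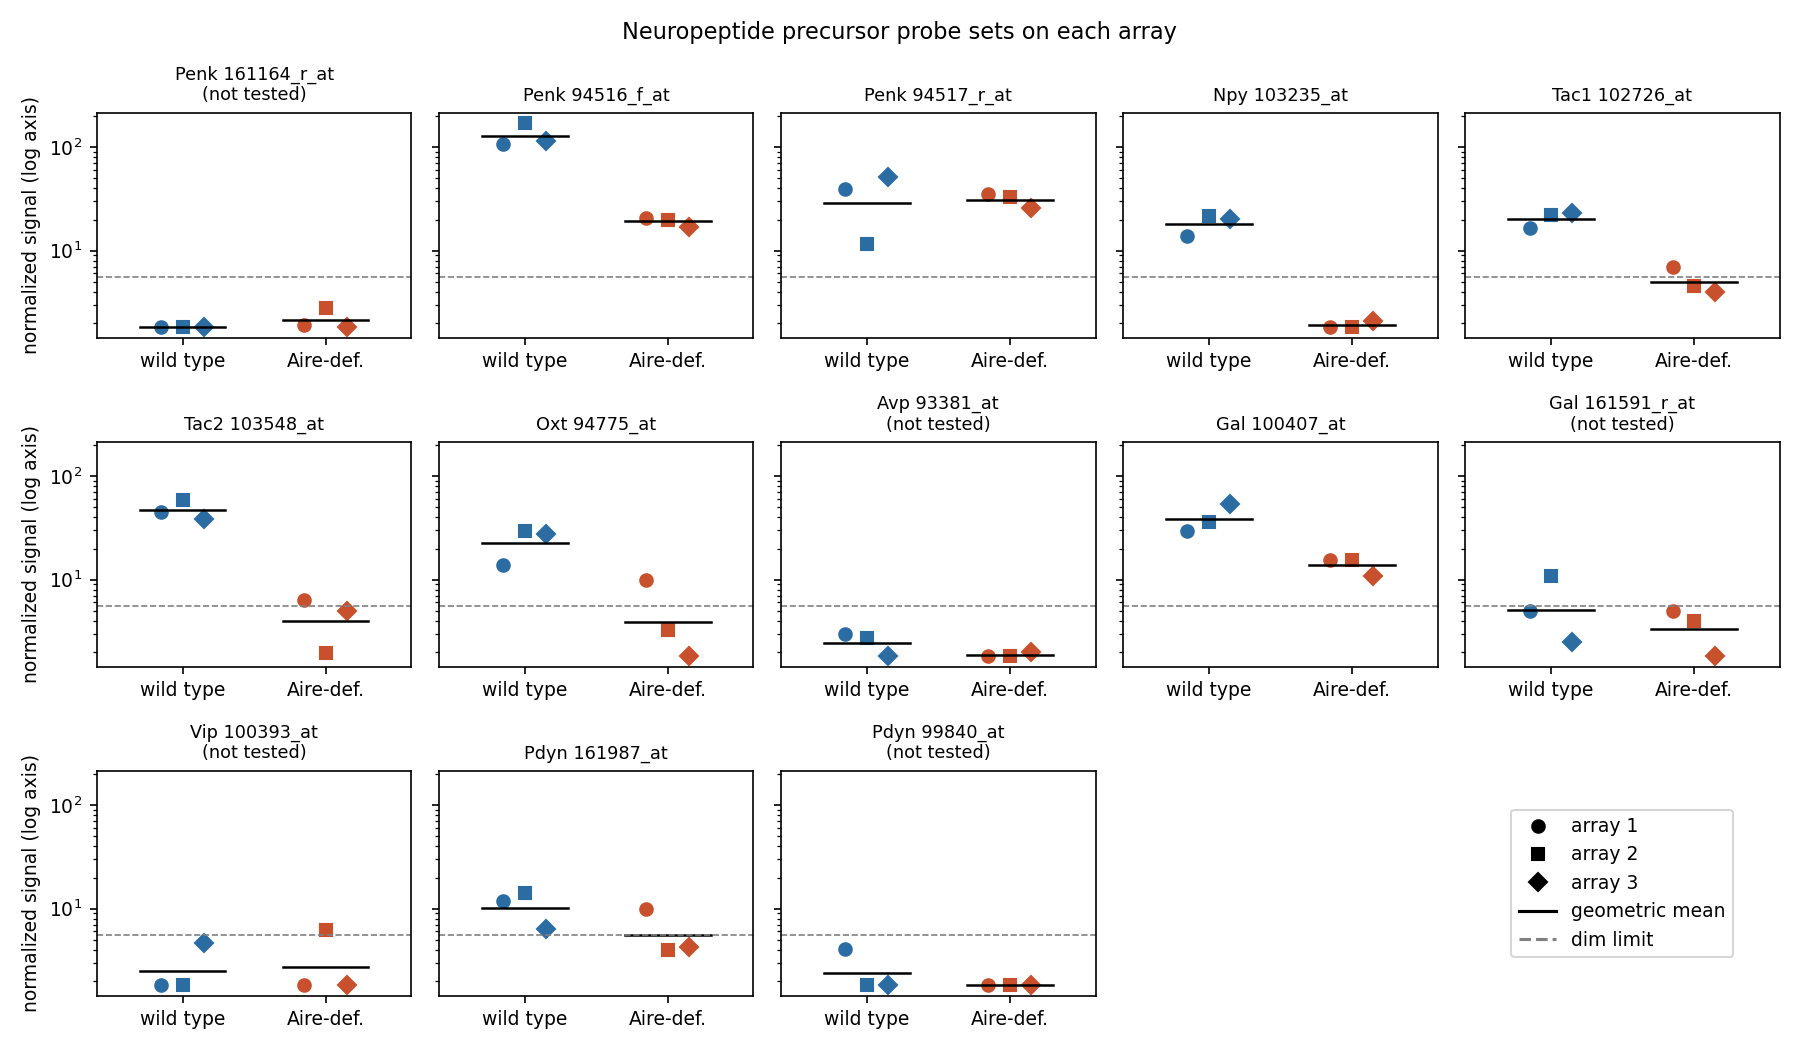
Normalized signal (log axis, arbitrary units) of each of the 13 member probe sets on the 3 wild-type and 3 Aire-deficient arrays; black lines are geometric means, signals under the floor of 1.8 are drawn at it, and the dashed line is the dim limit of 5.53. Levels of different panels are not comparable; within panels, the groups are separate for the Penk probe set 94516_f_at and for Npy, Tac1, Tac2, Oxt and the Gal probe set 100407_at.

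Among the opioid precursors, Penk encodes proenkephalin, the source of the enkephalins. Its probe set 94516_f_at read 108, 171 and 116 in wild type (arrays 1 to 3, in order here and below) and 20.6, 20 and 17.03 in Aire-deficient cells. Every Aire-deficient array lay below every wild-type array, and the Aire-deficient values spread little (SD 0.15 on the log2 scale, n = 3, against 0.36 in wild type). The fall was 6.74-fold, a log2 difference of -2.75 ± 0.31 (SE, adjusted p = 0.00316). Without wild-type array 3 the adjusted p was 0.0501, just past the threshold, while the difference was -2.83.

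The other Penk probe sets did not show this fall. Probe set 94517_r_at, which the annotation ties to the same source sequence, read 39.2, 11.5 and 52.0 in wild type and 35.0, 33.2 and 26.1 in Aire-deficient cells. Wild-type array 2, the array with the high 3' to 5' ratio, was the lowest of the 6, and the groups overlapped. The log2 difference was 0.12, with a 95% interval of -0.99 to 1.24 (adjusted p = 0.939), and it turned to -0.55 without wild-type array 2. The differences of these 2 probe sets stood 2.88 apart on the log2 scale (-2.88 for 94516_f_at minus 94517_r_at; 2-sided exact permutation p = 0.1, the smallest that 3 against 3 arrays allow, or 0.25 adjusted over the 5 probe set pairs compared). The third Penk probe set, 161164_r_at, stayed under the dim limit on all 6 arrays, at 0.3 to 2.78. In this array's naming the suffix f marks probes that can bind several related sequences and the suffix r marks sets for which some selection rules were dropped.

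Pdyn encodes prodynorphin, the precursor of the dynorphins and a relative of proenkephalin. Its probe set 161987_at read 11.8, 14.3 and 6.40 in wild type and 9.97, 3.98 and 4.25 in Aire-deficient cells. Aire-deficient array 1 lay inside the wild-type range, so the groups overlapped. The log2 difference of -0.89 (95% interval -2.01 to 0.23, adjusted p = 0.477) did not pass. The second Pdyn probe set, 99840_at, was dim on every array, with its highest value of 4.07 on wild-type array 1.

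The tachykinin precursors fell in both cases. Tac1, the gene of substance P and neurokinin A, read 16.6, 22.1 and 23.1 in wild type and 6.97, 4.55 and 3.95 in Aire-deficient cells. The groups did not overlap, and only Aire-deficient array 1 remained above the dim limit. The fall was 4.08-fold, or -2.03 ± 0.38 on the log2 scale (adjusted p = 0.0274). Its size, too, depended on the floor, and was -1.77 with the floor at the 40th percentile. The Tac1 call was the least firm of the 4. Its adjusted p was 0.0774, 0.108 and 0.119 without wild-type arrays 1, 2 and 3, and 0.106 and 0.0865 without Aire-deficient arrays 2 and 3.

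Tac2 encodes the precursor of neurokinin B, a tachykinin of hypothalamic neurons. It read 45.6, 58.9 and 38.6 in wild type and 6.32, 1.95 and 5.02 in Aire-deficient cells, again with array 1 the only Aire-deficient array above the dim limit. The lowest wild-type array was several times the highest Aire-deficient one. The 11.9-fold fall, or -3.57 ± 0.45 on the log2 scale (adjusted p = 0.00460), was larger than the fitted difference of Npy, but that order turned with the floor at 1 (-3.57 for Tac2 and -3.58 for Npy) and without Aire-deficient array 2 (-3.01 and -3.20). The adjusted p was 0.0544 without wild-type array 3, at a difference of -3.72. Since Aire-deficient arrays 2 and 3 lay under the dim limit, the size of the Tac2 fall depended on the floor. With the floor at the 40th percentile it was -3.02.

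Npy encodes neuropeptide Y, a peptide of sympathetic and hypothalamic neurons that stimulates feeding. Its probe set read 13.9, 21.4 and 20.4 in wild type and 1.57, 1.10 and 2.08 in Aire-deficient cells. All 3 wild-type arrays were above the dim limit and all 3 Aire-deficient arrays far under it. The fall was therefore at least 3.30-fold, the wild-type geometric mean of 18.3 (SD 0.34 on the log2 scale, n = 3) divided by the limit, and the fitted log2 difference was -3.27 ± 0.46 (adjusted p = 0.00639). Because Npy passed the filter through the wild-type arrays alone, it had to differ, and this p-value is not free of the filter. The size of its fall depended on the floor. It was -1.72 with the floor at the 40th percentile and -3.58 with the floor at 1. Leaving out any wild-type array removed Npy from the tested set. With the probe sets of the 6-array filter kept, the adjusted p was 0.0303, 0.0585 and 0.0572 without wild-type arrays 1, 2 and 3.

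Oxt and Avp encode the hypothalamic hormones oxytocin and vasopressin and are neighbours on chromosome 2. Oxt read 13.9, 29.6 and 27.9 in wild type and 9.85, 3.23 and 0.82 in Aire-deficient cells. The groups did not overlap, but Aire-deficient array 1 came close to wild-type array 1, and the Aire-deficient arrays varied more (SD 1.25 on the log2 scale, n = 3) than the wild-type arrays (0.61). The log2 difference of -2.55 ± 0.60 missed the threshold (adjusted p = 0.0640) and passed it with the replicate number as a block (adjusted p = 0.0244). Without Aire-deficient array 1 it was -3.23 with an adjusted p of 0.0148. With the block, which no label states, but without both arrays numbered 2, the limma adjusted p was 0.128.

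Avp gave no such signal in either group. It read 2.94, 2.70 and 0.80 in wild type and 1.47, 0.67 and 1.98 in Aire-deficient cells, all under the dim limit, so no fold is given. At this signal over background a difference in Avp was not detectable.

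Gal encodes the precursor of galanin, an inhibitory peptide of many neurons. Its probe set 100407_at read 29.4, 36.4 and 53.7 in wild type and 15.5, 15.6 and 10.8 in Aire-deficient cells. The groups did not overlap, and all 6 arrays lay above the dim limit. The log2 difference was -1.49 ± 0.35, a 2.80-fold lower signal that missed the threshold (adjusted p = 0.0638) and passed it with the block (adjusted p = 0.0251). The second Gal probe set, 161591_r_at, exceeded the limit only on wild-type array 2, at 10.9, and was not tested.

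Vip, the precursor of vasoactive intestinal peptide, was also too dim to test. It read 0.67, 1.12 and 4.63 in wild type and 1.02, 6.20 and 1.47 in Aire-deficient cells. One array, Aire-deficient array 2, exceeded the limit.

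**Figure D2:**
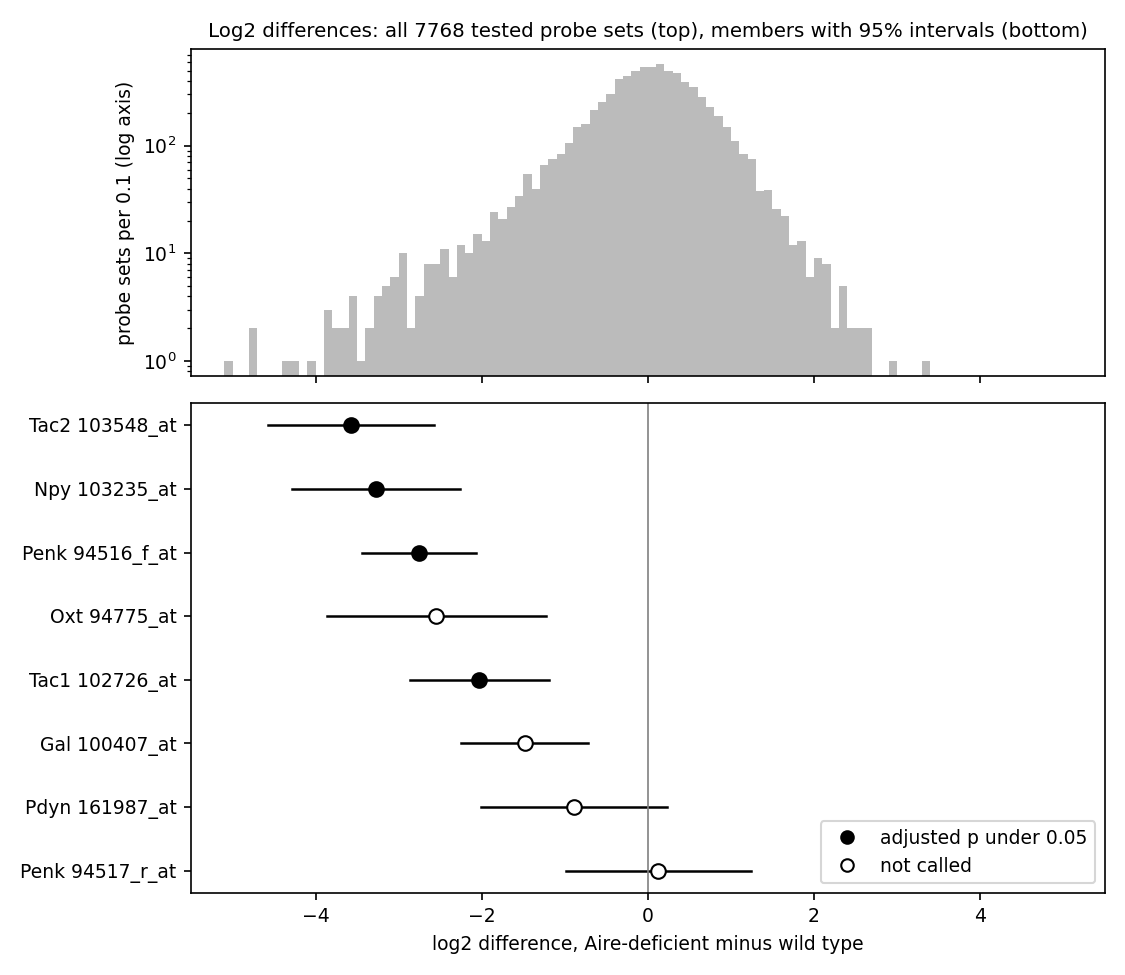
Top, the number of tested probe sets (log axis) in bins of the log2 difference, Aire-deficient minus wild type, over all 7768; bottom, the 8 tested member probe sets with 95% intervals of the limma fit, not adjusted for the number of tests. The members run from -3.57 for Tac2 to 0.12 for the Penk probe set 94517_r_at, and the filled points are the 4 called ones.

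The order of the arrays within a group was similar for several members. Wild-type array 1 gave the lowest wild-type signal for 5 of the 8 tested member probe sets (Penk 94516_f_at, Npy, Tac1, Oxt and Gal), and array 2 the highest for 5. Aire-deficient array 1 gave the highest Aire-deficient signal for 6 of the 8 and array 3 the lowest for 5. Such ranks were not counted over all tested probe sets, so whether they are particular to the members was not tested. Differences within same-number pairs of arrays ranged for Oxt from -3.95 to -0.50, for Tac2 from -4.92 to -2.85 and for Penk 94516_f_at from -3.10 to -2.38. Pair 1 was the pair with the smallest Oxt difference.

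**Figure D3:**
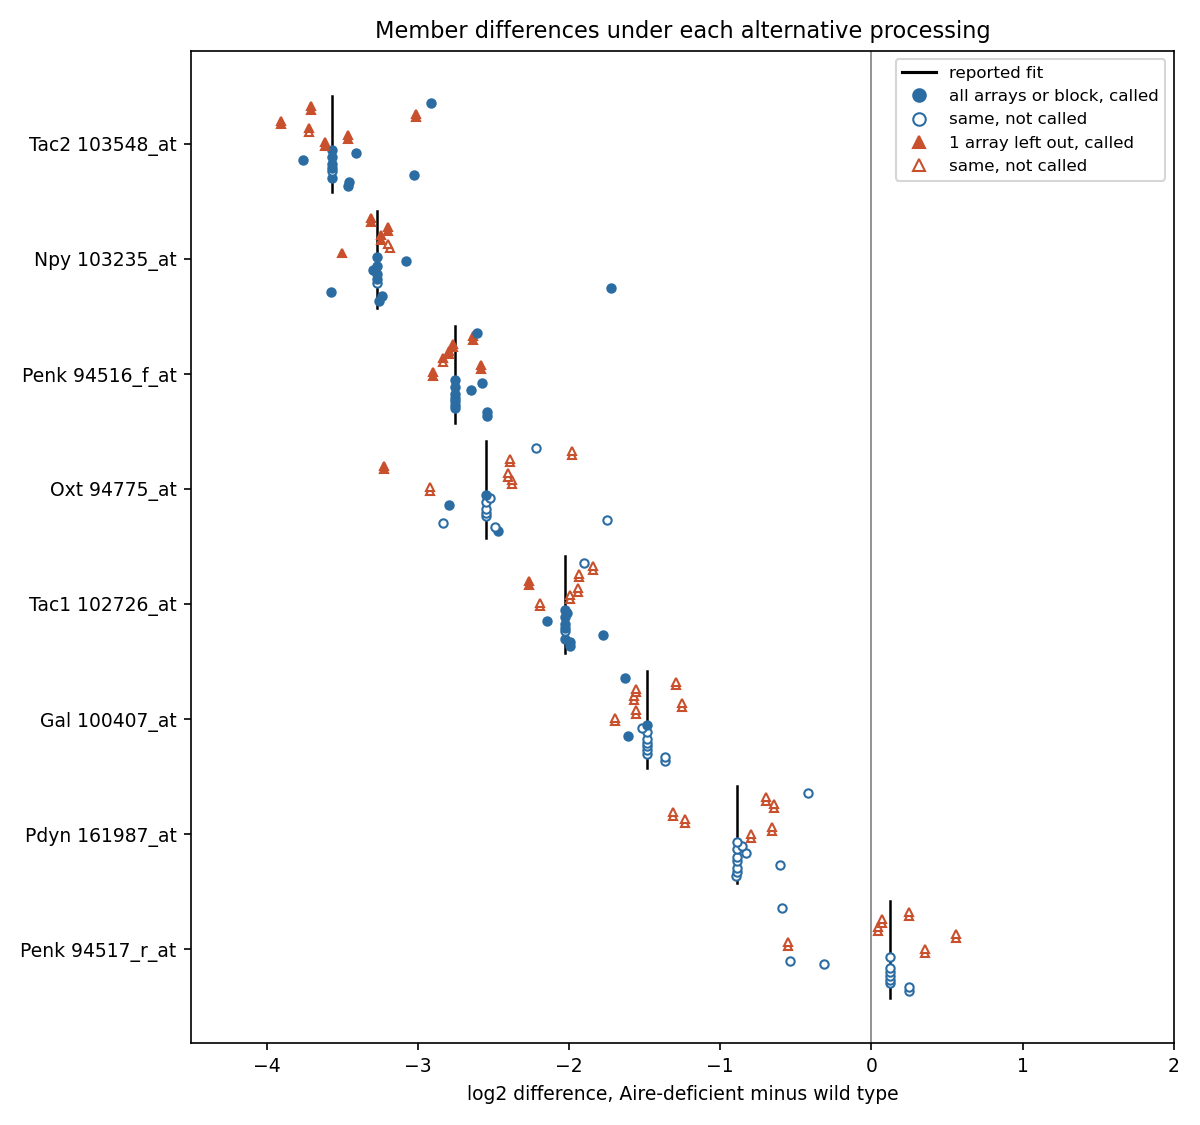
Log2 difference, Aire-deficient minus wild type, of each tested member probe set (rows) in the reported fit (black line) and under each alternative: other processing of the arrays (circles) and 1 array left out (triangles), filled where the adjusted p was under 0.05. Penk 94516_f_at, Npy, Tac1, Tac2, Oxt, Gal and Pdyn stay below 0 throughout, and Penk 94517_r_at lies on both sides.

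The nearest measured genes on the chromosome did not pass the test. The 16 such genes that are not members had 25 probe sets, of which 13 were tested in the limma fit. Only 3 of the 16 genes were directly next to a member, and the farthest, Aoc1, was 28 genes from Npy. Of the 13 tested probe sets 0 were lower and 0 higher, beside 1.38% and 0.348% of all tested. So few probe sets at such shares cannot show whether neighbours differ from other genes. At an unadjusted p under 0.05 there was 1 in each direction, beside 7.81% lower and 6.44% higher. Mrps26, a mitochondrial ribosomal protein gene next to Oxt, had a log2 difference of 0.54 (adjusted p = 0.534). Ppp6r3, a phosphatase regulatory subunit gene next to Gal, had -0.19 (adjusted p = 0.804). At a distance of 8 genes from Penk, the Bpnt2 probe set 95458_s_at had -1.23 (adjusted p = 0.159, or 0.0452 with the block), and its other probe set had -0.47. On one side of Tac1, 5 genes away, the transcription factor gene Dlx5 had 0.60 (adjusted p = 0.467). On the other side, 3 genes away, the asparagine synthetase gene Asns had the largest difference of the tested neighbours, 1.59 on probe set 161221_f_at (adjusted p = 0.267, groups not overlapping), and 0.11 on its other probe set. The first of these passed the filter through the Aire-deficient arrays alone.

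Other peptide precursors also fell. From a list of 32 further precursors of neuropeptides and peptide hormones, 18 genes were measured and 12 tested through 13 probe sets, of which 4 were lower and 0 higher (7 and 0 with the block, and 7 and 0 at an unadjusted p under 0.05). Their median log2 difference was -1.60, beside 0.05 over all tested probe sets. Over all tested probe sets 1.38% were lower and 0.348% higher. These shares were 3.37% and 1.93% with the block, and 7.81% and 6.44% at an unadjusted p under 0.05. The list, like the members, was chosen with earlier results of these data known. Ppy, pancreatic polypeptide, read 28.9, 51.9 and 23.1 in wild type and 5.85, 4.07 and 3.30 in Aire-deficient cells on probe set 94148_at (-2.93 ± 0.41, adjusted p = 0.00639). Like Npy it encodes a peptide of the neuropeptide Y family. Its second probe set, 162464_f_at, had -1.60 (adjusted p = 0.0995, or 0.0360 with the block). Pomc, the precursor of endorphin and corticotropin, read 35.2, 33.7 and 37.2 in wild type and 8.16, 2.25 and 4.59 in Aire-deficient cells (-3.01, adjusted p = 0.0104). The gut hormone gene Gip read 30.5, 27.5 and 51.3 in wild type and 1.68, 2.25 and 5.44 in Aire-deficient cells, at least 6.34-fold lower (adjusted p = 0.00503). On Ppy 94148_at, Pomc and Gip the groups did not overlap, with most Aire-deficient signals under the dim limit. The second Ppy probe set lay nearer, at 15.9, 38.2 and 20.1 in wild type and 11.0, 7.48 and 5.33 in Aire-deficient cells. Cck, cholecystokinin, read 9.55, 11.9 and 13.3 in wild type and 0.68, 0.37 and 0.82 in Aire-deficient cells, at least 2.07-fold lower (adjusted p = 0.0344). Gip and Cck, like Npy, passed the filter through the wild-type arrays alone and so had to differ, and they are 2 of the 4 calls of this list.

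Iapp, the islet amyloid peptide, had -2.01 with groups that did not overlap (adjusted p = 0.0670, or 0.00484 with the block).

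Not every precursor of that list was lower. Adm, adrenomedullin, read 51.2, 44.6 and 90.4 in wild type and 77.3, 114 and 67.9 in Aire-deficient cells (log2 difference 0.51, 95% interval -0.28 to 1.30, adjusted p = 0.567). Adcyap1, the precursor of the pituitary adenylate cyclase-activating peptide, had 0.35 (95% interval -0.47 to 1.16, adjusted p = 0.731).  Without wild-type arrays 1, 2 and 3 the number of lower calls in the list was 1, 1 and 0, the last with 5 lower at an unadjusted p under 0.05. With the tested probe sets kept, it was 3, 3 and 1. With no filter on dim signals it was 0, with 8 lower at an unadjusted p under 0.05.

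The genes that process and store peptides were mostly not called. Of 27 listed, 22 were measured and 15 tested through 20 probe sets, with 1 lower, 0 higher and a median log2 difference of -0.03. At an unadjusted p under 0.05, 2 were lower and 2 higher. The lower one was Chgb, a granin of dense-core granules, with 36.1, 34.1 and 28.5 in wild type and 11.0, 3.78 and 8.23 in Aire-deficient cells (-2.23 ± 0.42, adjusted p = 0.0276). The list had 0 lower calls when any of the wild-type arrays, or either of Aire-deficient arrays 2 and 3, was left out (1 or 2 lower at an unadjusted p under 0.05), and its second probe set was dim on all arrays. The bright members Cadps, which primes dense-core granules for release (-0.15 and 0.63 on its 2 bright probe sets, adjusted p = 0.837 and 0.615), and Ctsl, a lysosomal protease also found in secretory granules (-0.47, adjusted p = 0.776), did not pass. Pcsk1, a convertase that cleaves several of these precursors, was too dim to test.

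Receptors of the member peptides were largely undetected. Of 21 probe sets for 17 measured receptor genes, 17 were not tested, and 12 of these lay under the dim limit on all arrays. Among the 4 tested, 0 were lower and 0 higher in the limma fit, beside 1.38% and 0.348% of all tested. At an unadjusted p under 0.05, 1 was lower and 0 higher, beside 7.81% and 6.44%. The brightest, Npy2r, a receptor of neuropeptide Y, read 14.5, 19.7 and 15.6 in wild type and 8.38, 10.1 and 2.88 in Aire-deficient cells (-1.39, adjusted p = 0.218), while its other probe set was too dim to test. The vasopressin receptor genes Avpr1a (-0.04, adjusted p = 0.980) and Avpr2 (-0.42, adjusted p = 0.818) had signals of at most 7.40.

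**Figure D4:**
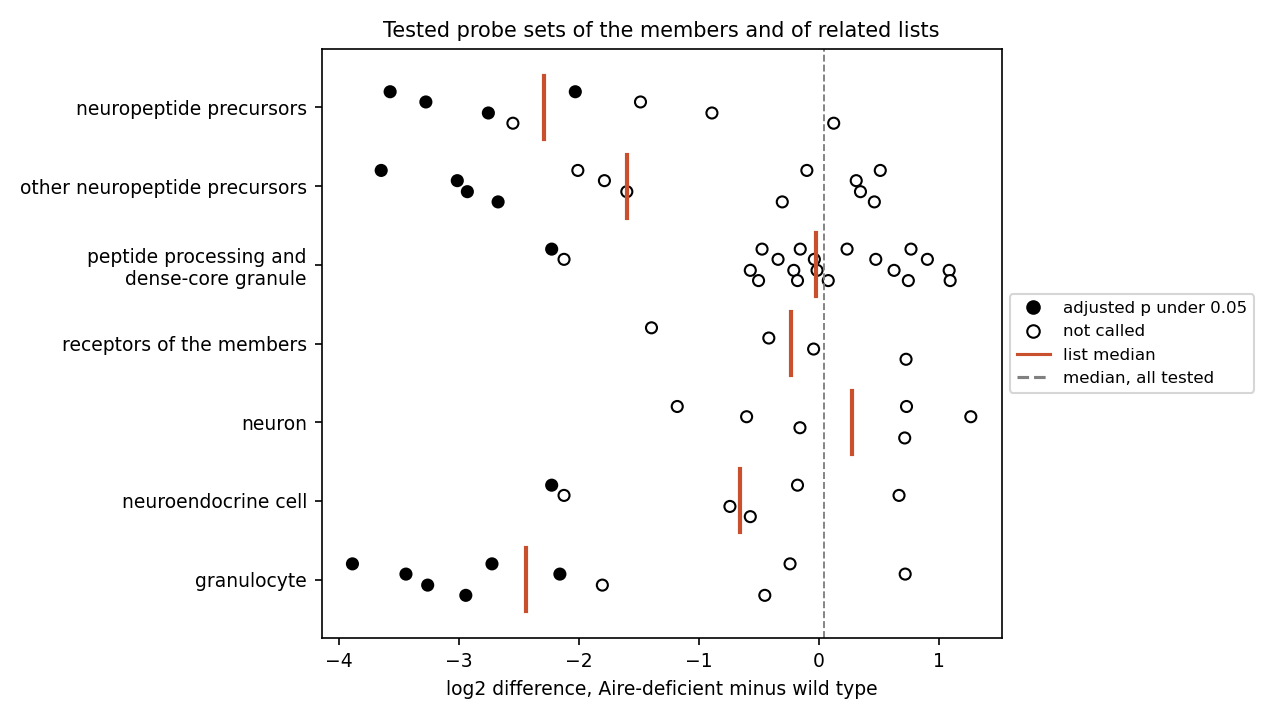
Log2 difference, Aire-deficient minus wild type, of every tested probe set of the members, of 3 lists of related genes and of neuron, neuroendocrine and granulocyte markers; filled points had an adjusted p under 0.05, red lines are list medians and the dashed line is the median of all tested probe sets. The medians are -2.29 for the members, -1.60 for other precursors, -0.03 for processing and granule genes, -0.66 for neuroendocrine markers, 0.28 for neuron markers and -2.44 for granulocyte markers. Npy, Gip, Cck, Scg2, Ly6g, Ngp and Ltf passed the filter on dim signals through the wild-type arrays alone.

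Markers of the cell types that usually make these peptides were examined beside the members. Of 14 measured neuron marker genes, Nefl, Nefm, Map2 and Elavl4 lay under the dim limit on every array, and the summed neuron signal was 111 to 155 in wild type and 91.9 to 170 in Aire-deficient cells. Of 6 tested neuron probe sets 0 were lower and 0 higher, with 1 in each direction at an unadjusted p under 0.05. For neuroendocrine markers the sums were 133 to 163 and 107 to 137, and Chgb, which is also on the granule list, was the 1 of 6 tested probe sets that fell. At an unadjusted p under 0.05, 2 were lower and 0 higher, the other being Scg2 with -2.12 (adjusted p = 0.112). Of the 6, 5 were below 0, beside 46.9% of all tested. Scg2 passed the filter through the wild-type arrays alone. The part of these markers in the members' differences was not tested. Scg3 and Ret lay under the limit on every array. Among granulocyte markers Ly6g, Ngp, Camp, Ltf, S100a8 and S100a9 fell, with Elane and Ctsg dim on every array. The other tested granulocyte probe sets were not called. Csf3r had 0.72, the Lcn2 probe sets -0.24 and -0.45, and Mpo -1.80. Ly6g, Ngp and Ltf, like Npy, passed the filter through the wild-type arrays alone and so had to differ. Wild-type array 1, the lowest for 5 of the 8 tested member probe sets, was also the lowest wild-type array for 4 of these 6 markers, Ngp, Camp, S100a8 and S100a9, and the highest for Ly6g and Ltf. These ranks, too, were not set beside those of all tested probe sets. The part of the granulocyte markers in the members' differences was not tested.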

How the data were processed

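Signals of 6 one-colour oligonucleotide arrays, 3 per genotype and each from 5 pooled mice, were analysed. The deposited table gives each probe set a linear signal intensity; the authors' software, background correction and scaling (not given in the sources used here) may affect every value. The table has 12488 probe sets, and its 66 controls were dropped. The rest were quantile normalized, raised to a floor of 1.8 (the 20th percentile) and log2 transformed. The 7768 above 5.53 (the 40th percentile) on at least 3 arrays were tested, each apart, with limma 3.58.1 in R 4.3.3 (lmFit, eBayes with a variance trend, 2-sided, Benjamini-Hochberg adjustment, threshold 0.05). A fold is "at least" where all 3 arrays of the dimmer group lie under 5.53, which then replaces that group's mean. Nothing states that the pools of a group held different animals, and p-values reflect only how these arrays vary, which may be partly technical.

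After subtracting group means, same-number arrays had correlations of 0.37, 0.20 and 0.19 and other pairs -0.25 to 0.07. The numbers were therefore treated as a pairing that rests on the data alone and is stated by no label. The fit without the block is the main one. The alternatives tried were different scaling, floor, filter and variance settings, weights per array, 1 probe set per gene, a term for 3' bias, the block and leaving out each array. Leaving out arrays with the tested probe sets kept, and the block without both arrays numbered 2, were added after the data were seen, as were all alternatives for the related lists, neighbours and Penk probe set pair. The members and lists were chosen with earlier results of these data known. Named genes are all member probe sets, up to 5 called and the 3 brightest probe sets of each related list, nearest measured genes, Aire and marker genes; further probe sets of named genes, Pcsk1, Scg2 and, of the granulocyte markers, S100a8 and S100a9 were chosen after their values were seen. Gene order and promoters come from RefSeq (GRCm38.p6). The procedure was tested on simulated data. Plots used matplotlib 3.10.9 (Python 3.11.15).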

Additional observations from a re-analysis of the deposited data

How the results depend on the processing

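Over 20 to 24 alternatives each, Penk 94516_f_at (-2.90 to -2.54), Npy (-3.58 to -1.72), Tac1 (-2.26 to -1.77), Tac2 (-3.90 to -2.91), Oxt (-3.23 to -1.75), Gal (-1.69 to -1.25) and Pdyn (-1.31 to -0.42) kept their direction. A call was lost in 1, 3, 12 and 2 of them for Penk, Npy, Tac1 and Tac2 and gained in 5 and 3 for Oxt and Gal. For Npy this counts only the 20 alternatives in which it was tested, against 24 for the other called members. Npy was not tested, and so not called, without wild-type array 1, 2 or 3 or with the block without both arrays numbered 2. Penk 94517_r_at ranged from -0.55 to 0.56 with 1 array left out, turning to -0.55 without wild-type array 2 (also with the tested probe sets kept), to -0.32 with array weights, to -0.54 with the 3' bias term and to -0.59 with the block without both arrays numbered 2; the cause was not tested.

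With no filter on dim signals 1 member probe set was called lower, of all probe sets 10 were lower and 6 higher, and the other precursors and granule genes had 0 lower. More probe sets at the floor were then tested. With the replicate number as a block 262 probe sets were lower and 150 higher, 7 other precursors were lower and 1 neighbour probe set was lower; the block added Oxt and Gal to the member calls and changed no other member call. The block without both arrays numbered 2 gave 145 lower and 77 higher, 3 member calls, 3 other precursors lower and 1 granule probe set higher. The adjusted p was then 0.128 for Oxt and 0.0548 for Tac1, and Npy was not tested. Array weights gave 166 lower and 72 higher. Values as deposited gave 71 higher (102 lower) and median scaling 55 higher (97 lower), beside 107 lower and 27 higher reported; the lower counts moved little and the higher counts rose. Without a variance trend 2 granule probe sets were lower.

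Leaving out 1 array at a time gave 2 to 76 lower and 0 to 9 higher probe sets, 0 to 5 member calls, 0 to 4 lower other precursors and 0 to 1 lower granule probe sets. With the tested probe sets kept, leaving out wild-type arrays 1, 2 and 3 and Aire-deficient arrays 1, 2 and 3 gave 55, 40, 25, 78, 48 and 56 lower and 16, 11, 5, 11, 2 and 11 higher probe sets, with 2 to 5 member calls, 1 to 4 other precursors and 0 to 1 granule probe sets. For the 0 higher calls without wild-type array 3, 555 probe sets were higher at an unadjusted p under 0.05 in limma. The Penk probe set difference ranged from -3.39 to -2.04. Signal near background limits Avp, Vip and the receptors.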
